A study of Mus musculus with 9 samples.

Results

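Wnt, bone morphogenetic protein (BMP) and transforming growth factor beta (TGF-beta) pathway genes were followed across 3 populations of cells sorted from adult mouse brain. The genes were taken by symbol: ligands named Wnt, Bmp 1 to 8 (Bmp4 left out) or Tgfb, the Frizzled, Lrp5 or Lrp6, Bmpr and Acvr receptors, Axin, Apc, Gsk3, Dvl, Csnk1 and Ctnnb1, the Smad and Smurf genes, and Znrf3 and Rnf43. This gave 58 of the 11315 genes measured. Of these, 28 act in Wnt signalling, 24 act in BMP or TGF-beta signalling, and 6 carry a matching name without being a core part of either. RNA sequencing had been run on 9 libraries, 3 from each of 3 sorts by green fluorescence, all from C57BL/6 mice at postnatal day 60. The sorts are named here by their reporters: NDRG1-eGFP, labelled myelinating oligodendrocytes; PLP-GFP, labelled pre-myelinating oligodendrocytes; and PDGFRa-GFP, labelled oligodendrocyte progenitors. The labels give neither the constructs nor the sort gates. They do not tell whether the replicates are different animals, and each p-value speaks only of the spread among these 9 libraries.

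Wnt ligands bind Frizzled receptors and the co-receptor Lrp6 and act through Dishevelled to halt a destruction complex of Axin, Apc, Gsk3 and casein kinase 1, which otherwise marks beta-catenin for degradation. BMP and TGF-beta ligands bind paired type I and type II receptor kinases that phosphorylate Smad proteins, which pair with Smad4 and enter the nucleus, while Smad7 and the Smurf ligases dampen the signal. Wnt signalling through beta-catenin and BMP signalling are known as brakes on the differentiation of oligodendrocyte progenitors. Axin2 is a Wnt target gene that marks the lineage while it responds to Wnt.

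Values are the authors' normalized expression, read as log2 from their range, since the log base is not given in the sources used here. Every library had the same median (10.57) and nearly the same range, raw counts were not analysed here, and depth is unknown. Levels are compared between libraries for 1 gene at a time, and not between genes. The 10 oligodendrocyte markers had library medians of 17.65 to 18.48 in all 3 sorts, so the libraries labelled progenitors held these transcripts at a level like the others, and the sorts are called by reporter. The 10 progenitor markers had medians of 8.52, 8.40 and 8.98 in NDRG1-eGFP, 8.83, 9.17 and 9.61 in PLP-GFP and 8.93, 9.48 and 8.17 in PDGFRa-GFP replicates. Pdgfra, which is among them, had 5.85, 4.98 and 6.26 in NDRG1-eGFP, 1.52, 4.98 and 1.63 in PLP-GFP and 6.87, 7.54 and 5.47 in PDGFRa-GFP libraries. Markers of fibroblast-like cells and immediate early genes, which cells switch on under stress, moved between the sorts. The fibroblast-like list had medians of 10.31, 10.46 and 8.92 in NDRG1-eGFP replicates 1, 2 and 3, of 3.54, 5.81 and 4.97 in PLP-GFP replicates and of 10.82, 10.06 and 9.97 in PDGFRa-GFP replicates. The immediate early list had medians of 11.82, 9.74 and 12.79 in NDRG1-eGFP, 7.99, 7.47 and 7.88 in PLP-GFP and 12.50, 12.41 and 8.64 in PDGFRa-GFP replicates. The part of either list in the results below was not tested. The Y-linked gene Ddx3y, a check on the sex of the animals, had 8.64, 1.82 and 7.33 in NDRG1-eGFP, 13.23, 1.57 and 1.63 in PLP-GFP and 9.26, 12.43 and 0.32 in PDGFRa-GFP libraries, so replicates of 1 sort differed in it. In bulk RNA of this kind, fewer cells of a type and less RNA per cell cannot be told apart.

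By group mean, 37 of the 58 genes were highest in PLP-GFP, 11 in PDGFRa-GFP and 10 in NDRG1-eGFP libraries. In NDRG1-eGFP against PLP-GFP, 25 of the 58 genes were lower and 2 were higher (limma, Benjamini-Hochberg adjusted p under 0.05 over all genes), where 22.2% of all genes were lower and 26.1% higher. Their median log2 fold change was -0.70, against 0.08 over all genes. In PLP-GFP against PDGFRa-GFP, 10 were higher and 1 was lower, beside 8.46% and 8.53% of all genes, with a median of 0.25 against 0.03. In NDRG1-eGFP against PDGFRa-GFP, 1 was higher and 11 were lower, beside 10.7% and 10.4% of all genes, with a median of -0.34 against 0.14. These comparisons share libraries, so a high PLP-GFP level enters both the first and the second.

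**Figure D1:**
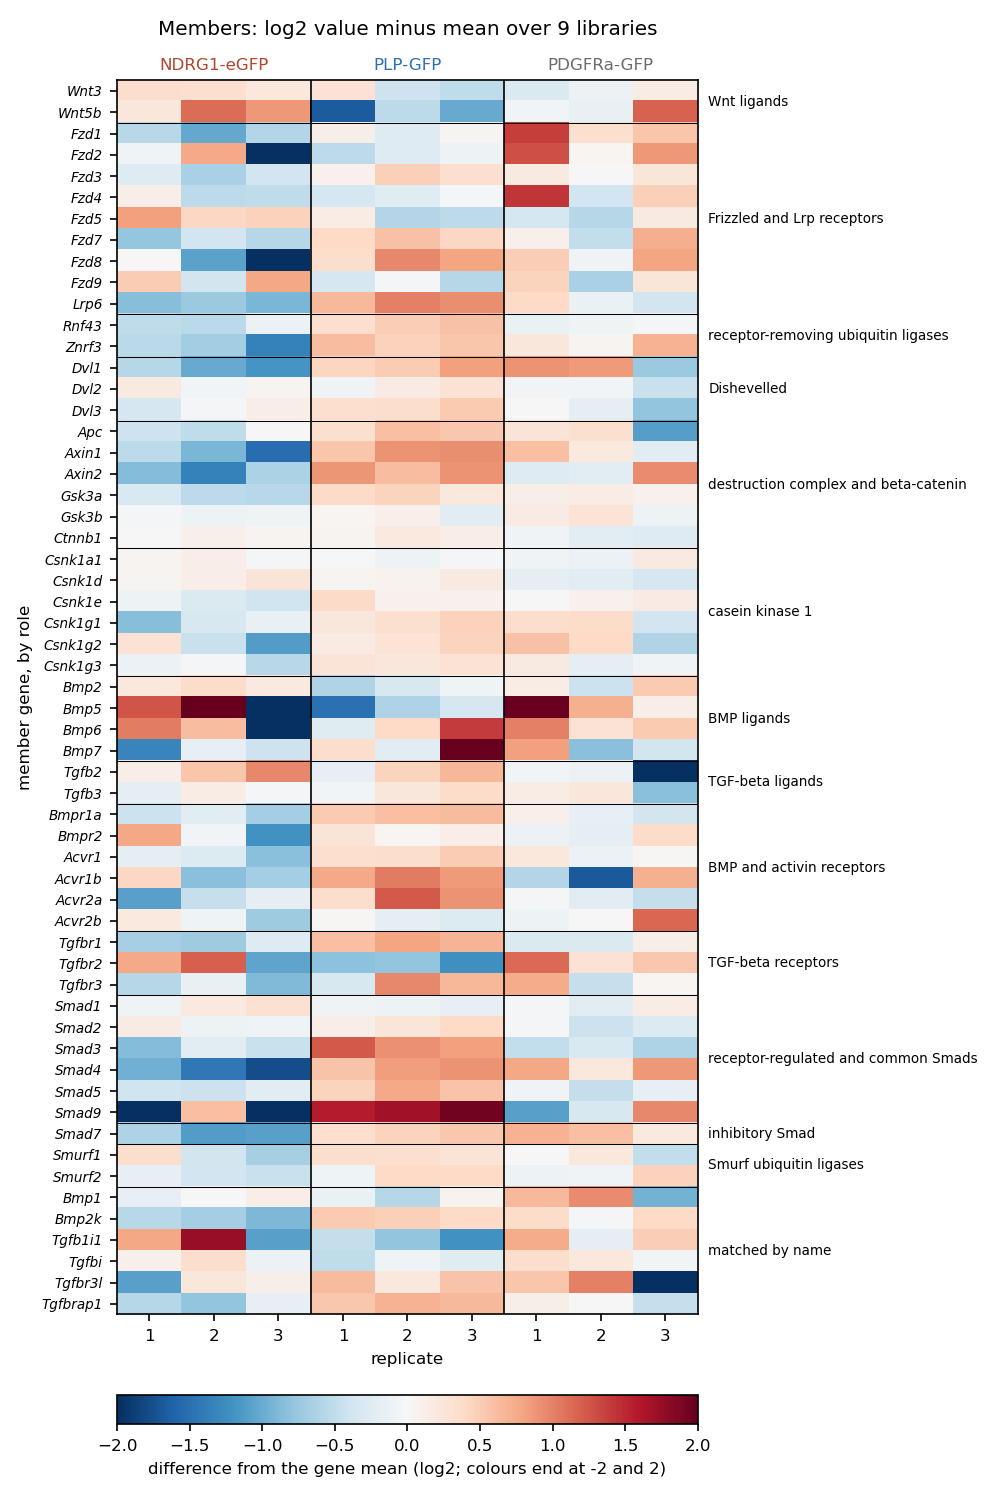
Log2 value of each of the 58 genes in each of the 9 libraries, minus the gene's mean over all 9, with genes ordered by role down the page and libraries grouped by sort from NDRG1-eGFP through PLP-GFP to PDGFRa-GFP. Red is above and blue below the gene's mean, and most rows are red in the 3 PLP-GFP columns, where 37 genes have their highest group mean.

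Transcript length ran through these differences. Over all genes the median log2 fold change of NDRG1-eGFP against PLP-GFP was 0.72 in the shortest of 5 equal bins of transcript length and -0.61 in the longest. The pathway genes are long, with a median of 4269 bases against 3243 for all genes, and 22 of the 58 lay in the longest bin, where 13 of the 22 were lower, beside 47.1% of all genes there. With each library's trend on length removed, 18 of the 58 were lower and 4 higher in NDRG1-eGFP against PLP-GFP (15.6% and 17.6% of all genes), and the median was -0.27 against 0.06. The same correction left 2 genes higher in PLP-GFP against PDGFRa-GFP (3.59% of all genes) and 0 lower (4.3% of all genes; limma, with 5 of the 58 lower at an unadjusted p under 0.05). In NDRG1-eGFP against PDGFRa-GFP it left 8 lower and 2 higher (9% and 8.78% of all genes). Each call that this correction ends is named below.

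**Figure D2:**
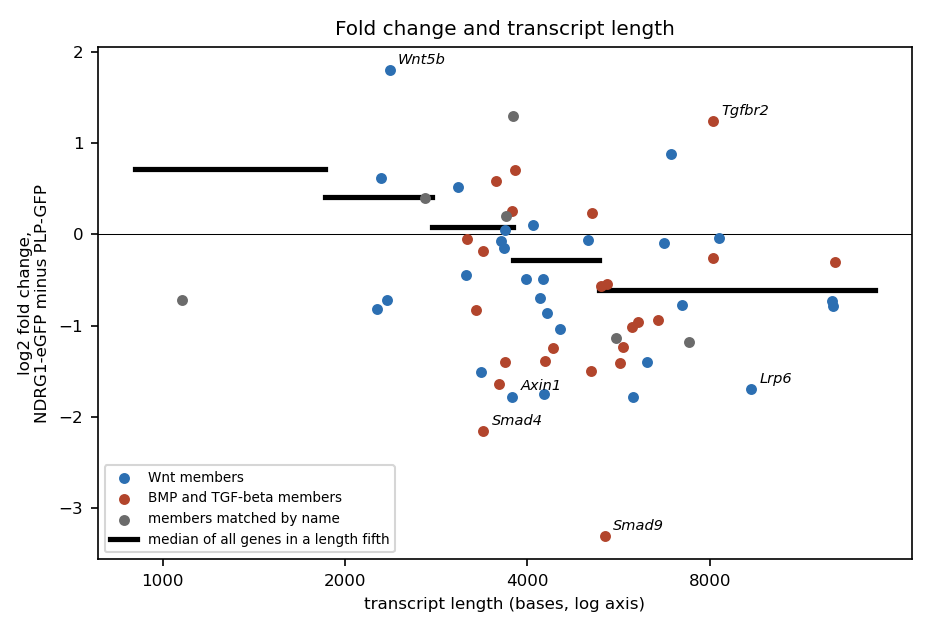
Log2 fold change of NDRG1-eGFP minus PLP-GFP for each of the 58 genes against its transcript length in bases on a log axis, coloured by pathway, with black bars at the median of all genes in each of 5 bins of length. The bars step down from 0.72 to -0.61, and Smad9, Smad4 and Axin1 lie well below the bar of their own bin while Wnt5b and Tgfbr2 lie above theirs.

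The sequence before the transcription start was read because 25 of the 58 genes were lower in NDRG1-eGFP against PLP-GFP. Only 39 of the 58 had a promoter in the RefSeq table (GRCm38.p6, 51 promoters). Among those without were Smad4, Smad7, Axin1, Lrp6, Znrf3, Fzd8 and Fzd3, all called lower in that comparison. The motif counts therefore leave these genes out. In the 250 bases before the start, on both strands, 3 motifs were searched: CTTTGA, the core bound by the TCF/LEF partners of beta-catenin; GTCTAGAC, the Smad palindrome; and GGCGCC, a GC-rich element bound by Smads of the BMP branch. CTTTGA occurred in 4 of the 51 promoters (7.84%) and in 13.8% of all 32851 promoters. GGCGCC occurred in 13 of the 51 (25.5%) and in 9.59% of all, while the median GC content was 68.8% in the 51 and 52.4% in all. GTCTAGAC occurred in none of the 51 and in 0.167% of all. A match is a run of letters and not a known site, and 2 of these motifs can share at most their end base. Of the genes with GGCGCC, Fzd4, Fzd9, Ctnnb1, Bmpr2 and Tgfbi were not called in NDRG1-eGFP against PLP-GFP. Csnk1e, Smad5, Smurf2, Bmp2k and Tgfbrap1 were lower there, as were Bmpr1a, Tgfbr1 and Smad9. In that comparison 43.1% of the 58 genes and 22.2% of all genes were lower. With length removed the calls of Smad5 (-0.37) and Smurf2 (-0.12) ended. Whether the motif goes with the change was not tested. The windows below hold the CTTTGA matches of Wnt5b, the ligand that was higher in NDRG1-eGFP cells, and of the kinase pair Gsk3a and Gsk3b, of which the first was lower. They also hold the GGCGCC matches of a BMP receptor, a TGF-beta receptor and a Smad, chosen from the genes called lower. Each window runs 5′ to 3′ on the gene's strand, with the match in capitals, which reads TCAAAG where CTTTGA lies on the other strand.
Wnt5b, the third of 3 promoters, chr6:119449425-119449484, minus strand: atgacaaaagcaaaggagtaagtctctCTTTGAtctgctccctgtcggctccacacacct
Gsk3a, chr7:25237976-25238035, minus strand: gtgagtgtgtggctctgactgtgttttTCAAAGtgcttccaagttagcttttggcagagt
Gsk3b, chr16:38088897-38088956, plus strand: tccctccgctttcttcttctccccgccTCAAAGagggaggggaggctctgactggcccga
Bmpr1a, chr14:34502712-34502771, minus strand: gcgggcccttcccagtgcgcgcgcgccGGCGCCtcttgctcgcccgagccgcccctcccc
Tgfbr1, chr4:47352972-47353031, plus strand: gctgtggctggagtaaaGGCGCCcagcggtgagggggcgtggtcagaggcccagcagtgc
Smad9, chr3:54755504-54755563, plus strand: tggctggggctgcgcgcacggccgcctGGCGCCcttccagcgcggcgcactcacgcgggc

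Wnt ligands were represented by 2 genes, of which Wnt5b was higher in NDRG1-eGFP against PLP-GFP and Wnt3 passed no test. Wnt5b, a ligand known mainly for signalling without beta-catenin, had log2 values of 8.20, 9.08 and 8.83 in NDRG1-eGFP libraries, against 6.31, 7.44 and 6.96 in PLP-GFP libraries and 7.91, 7.82 and 9.15 in PDGFRa-GFP libraries. All NDRG1-eGFP libraries lay above all PLP-GFP libraries, and the PDGFRa-GFP libraries spanned the NDRG1-eGFP range. Wnt5b was higher in NDRG1-eGFP against PLP-GFP (log2 fold change 1.80 ± 0.43, SE; limma adjusted p = 0.0061) and stayed so with length removed (1.46). It was lower in PLP-GFP against PDGFRa-GFP (-1.39 ± 0.43, adjusted p = 0.0484), a call that ended with length removed, though the fold change stayed at -1.27, and in 5 of the 6 fits without 1 compared library: those without each PLP-GFP library and PDGFRa-GFP replicates 2 and 3. The fibroblast-like median moved in the same direction as Wnt5b in both comparisons. Wnt3, a ligand that signals through beta-catenin, had 12.31, 12.29 and 12.17 in NDRG1-eGFP, 12.24, 11.54 and 11.44 in PLP-GFP and 11.66, 11.84 and 12.10 in PDGFRa-GFP libraries. NDRG1-eGFP and PLP-GFP libraries overlapped for Wnt3 (0.52 ± 0.20 between them, adjusted p = 0.0593). Without PLP-GFP replicate 1, Wnt3 was called higher in NDRG1-eGFP against PLP-GFP (0.77).

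At the receptors, Lrp6 was called in all 3 comparisons. Lrp6 (chromosome 6, 134446476 to 134566965, GRCm38), the co-receptor needed for signalling to beta-catenin, had 10.72, 10.83 and 10.66 in NDRG1-eGFP, 12.22, 12.57 and 12.50 in PLP-GFP and 11.96, 11.44 and 11.20 in PDGFRa-GFP libraries. The 3 sorts did not overlap, with NDRG1-eGFP lowest and PLP-GFP highest. It was lower in NDRG1-eGFP against PLP-GFP (-1.69 ± 0.19, adjusted p = 0.000116; -1.05 with length removed) and against PDGFRa-GFP (-0.80 ± 0.19, adjusted p = 0.0163), and the call against PDGFRa-GFP ended with length removed (-0.41) and without NDRG1-eGFP replicate 1. In PLP-GFP against PDGFRa-GFP it was higher (0.90 ± 0.19, adjusted p = 0.0157; 0.64 with length removed), though not without PLP-GFP replicate 2 or 3 or PDGFRa-GFP replicate 2.

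Of the 8 Frizzled receptors, 3 were lower and 1 was higher in NDRG1-eGFP against PLP-GFP, beside 22.2% and 26.1% of all genes. Fzd8 had 8.63, 7.55 and 6.41 in NDRG1-eGFP, 8.97, 9.58 and 9.41 in PLP-GFP and 9.11, 8.55 and 9.42 in PDGFRa-GFP libraries. NDRG1-eGFP libraries were spread over more than 2 log2 units and still lay below the PLP-GFP libraries. The fold change was -1.79 ± 0.47 (adjusted p = 0.0107). Fzd7 (-1.04 ± 0.26) and Fzd3 (-0.74 ± 0.16), a receptor with a known part in axon guidance, were also lower. All 3 of these calls ended with length removed, at -1.27 for Fzd8, -0.72 for Fzd7 and -0.13 for Fzd3. Fzd5 had 8.76, 8.36 and 8.41 in NDRG1-eGFP, 8.10, 7.36 and 7.42 in PLP-GFP and 7.60, 7.38 and 8.12 in PDGFRa-GFP libraries, so that every NDRG1-eGFP library was above the other 6. It was higher in NDRG1-eGFP against PLP-GFP (0.88 ± 0.30, adjusted p = 0.0327; 1.47 with length removed), but in 5 of the 6 fits without 1 compared library, all but that without PLP-GFP replicate 1, the call ended, and 17.8% of its transcript is overlapped on the other strand by another gene. Fzd1 had 5.68, 5.21 and 5.65 in NDRG1-eGFP, 6.36, 5.97 and 6.29 in PLP-GFP and 7.62, 6.55 and 6.79 in PDGFRa-GFP libraries. The sorts did not overlap, and Fzd1 was lower in NDRG1-eGFP against PDGFRa-GFP (-1.47 ± 0.43, adjusted p = 0.0347), where Fzd8 (-1.49 ± 0.47, with libraries that overlapped) and Fzd3 (-0.57 ± 0.16) were lower too. With length removed Fzd1 was still called (-1.42), while Fzd8 at -1.27 and Fzd3 at -0.09 were not. Leaving out 1 compared library ended the calls of Fzd1, Fzd8 and Fzd3 in 4, 5 and 3 of 6 fits: without any NDRG1-eGFP library or PDGFRa-GFP replicate 1 for Fzd1, all but that without NDRG1-eGFP replicate 1 for Fzd8, and without NDRG1-eGFP replicate 2 or 3 or PDGFRa-GFP replicate 1 for Fzd3. Fzd2, Fzd4 and Fzd9 passed no test, with log2 fold changes of -0.15, -0.09 and 0.62 in NDRG1-eGFP against PLP-GFP. Fzd2 had 3.81 in NDRG1-eGFP replicate 3, against 5.75 and 6.58 in the other two.

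The membrane ubiquitin ligases Znrf3 and Rnf43, which remove Frizzled from the cell surface and are themselves induced by Wnt, were both lower in NDRG1-eGFP against PLP-GFP. In that comparison 22.2% of all genes were lower, and with length removed 1 of the 2 ligases was, beside 15.6% of all genes. Znrf3 had 8.09, 7.94 and 7.27 in NDRG1-eGFP, 9.24, 9.09 and 9.18 in PLP-GFP and 8.85, 8.68 and 9.32 in PDGFRa-GFP libraries. NDRG1-eGFP libraries lay below all others, and PLP-GFP and PDGFRa-GFP libraries overlapped. The fold change was -1.40 ± 0.26 against PLP-GFP (adjusted p = 0.00191) and -1.18 ± 0.26 against PDGFRa-GFP (adjusted p = 0.0121), and both calls ended with length removed (-0.85 and -0.94). Rnf43 had 10.03, 9.99 and 10.41 in NDRG1-eGFP, 10.87, 11.03 and 11.12 in PLP-GFP and 10.40, 10.45 and 10.49 in PDGFRa-GFP libraries. PLP-GFP libraries stood above both other sorts, at -0.86 ± 0.16 for NDRG1-eGFP against PLP-GFP (adjusted p = 0.0015; -0.59 with length removed) and 0.56 ± 0.16 for PLP-GFP against PDGFRa-GFP (adjusted p = 0.0357). The second of these ended with length removed (0.35) and in 5 of the 6 fits without 1 compared library, the exception being that without PDGFRa-GFP replicate 3.

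The 3 Dishevelled genes, whose proteins pass the signal from Frizzled to Axin, were called in different comparisons, and whether they differ in their change was not tested. Dvl1 had 10.78, 10.33 and 10.17 in NDRG1-eGFP, 11.77, 11.86 and 12.17 in PLP-GFP and 12.24, 12.19 and 10.60 in PDGFRa-GFP libraries. PDGFRa-GFP replicate 3 fell among the NDRG1-eGFP libraries and the other two among or above the PLP-GFP libraries. Dvl1 was lower in NDRG1-eGFP against PLP-GFP (-1.51 ± 0.38, adjusted p = 0.00804; -1.50 with length removed) and against PDGFRa-GFP (-1.25 ± 0.38, adjusted p = 0.0396), the second in overlapping libraries and lost in 5 of the 6 fits without 1 compared library, all but that without PDGFRa-GFP replicate 3. Dvl3 had 10.63, 10.94 and 11.10 in NDRG1-eGFP, 11.31, 11.33 and 11.50 in PLP-GFP and 10.96, 10.80 and 10.19 in PDGFRa-GFP libraries. PLP-GFP libraries were the highest, with a call against PDGFRa-GFP only (0.73 ± 0.21, adjusted p = 0.0374), which ended with length removed (0.56) and in 4 of the 6 fits without 1 compared library (any PLP-GFP library or PDGFRa-GFP replicate 2). Dvl2 had 10.58, 10.35 and 10.46 in NDRG1-eGFP, 10.32, 10.57 and 10.69 in PLP-GFP and 10.34, 10.34 and 9.95 in PDGFRa-GFP libraries and passed no test, and 18.3% of its transcript lies opposite another gene.

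In the destruction complex, Axin1, Axin2 and Gsk3a were lower in NDRG1-eGFP against PLP-GFP, 3 of 6 genes counting beta-catenin (50%, beside 22.2% of all genes), while Apc, Gsk3b and Ctnnb1 passed no test. Axin1 (chromosome 17, 26138688 to 26195811), the limiting scaffold of the complex, had 10.19, 9.81 and 9.20 in NDRG1-eGFP, 11.27, 11.62 and 11.65 in PLP-GFP and 11.32, 10.91 and 10.49 in PDGFRa-GFP libraries. NDRG1-eGFP libraries lay below the other 6. Axin1 was lower in NDRG1-eGFP against PLP-GFP (-1.78 ± 0.27, adjusted p = 0.000611) and against PDGFRa-GFP (-1.17 ± 0.27, adjusted p = 0.0141), with -1.64 and -1.18 once length was removed. Axin2 (chromosome 11, 108920349 to 108950783), the scaffold that Wnt itself induces, had 6.23, 5.75 and 6.47 in NDRG1-eGFP, 7.99, 7.72 and 8 in PLP-GFP and 6.84, 6.88 and 8.04 in PDGFRa-GFP libraries. NDRG1-eGFP libraries were again below all others, and PDGFRa-GFP replicate 3 reached the PLP-GFP level. It was lower in NDRG1-eGFP against PLP-GFP (-1.75 ± 0.39, adjusted p = 0.00449; -1.49 with length removed), and the difference from PDGFRa-GFP missed the threshold (-1.10 ± 0.39, adjusted p = 0.0682).

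The kinase pair Gsk3a and Gsk3b, whose proteins are held to act largely interchangeably on beta-catenin, gave calls for Gsk3a only, as deposited. Gsk3a had 11.32, 11.11 and 11.07 in NDRG1-eGFP, 12.02, 12.07 and 11.85 in PLP-GFP and 11.75, 11.78 and 11.72 in PDGFRa-GFP libraries. The sorts did not overlap, and NDRG1-eGFP was lower than PLP-GFP (-0.82 ± 0.12, adjusted p = 0.000605) and than PDGFRa-GFP (-0.58 ± 0.12, adjusted p = 0.00972). Because Gsk3a has a short transcript, removing length made both larger (-1.20 and -0.82), and 28.3% of its transcript lies opposite another gene, so its value is uncertain if reads were counted without strand. Gsk3b had 11.66, 11.60 and 11.61 in NDRG1-eGFP, 11.74, 11.80 and 11.47 in PLP-GFP and 11.86, 11.97 and 11.60 in PDGFRa-GFP libraries. All 3 sorts overlapped, at -0.04 ± 0.14 in NDRG1-eGFP against PLP-GFP, although with length removed Gsk3b was called higher there (0.59, adjusted p = 0.00553). Whether the 2 kinases differ in their change was not tested. Ctnnb1, which encodes beta-catenin, had 13.89, 13.99 and 13.94 in NDRG1-eGFP, 13.94, 14.08 and 14.02 in PLP-GFP and 13.81, 13.65 and 13.62 in PDGFRa-GFP libraries, so that all 9 libraries lay close together. Its fold change in NDRG1-eGFP against PLP-GFP was -0.08 ± 0.11 (adjusted p = 0.578), and 14.6% of its transcript lies opposite another gene. Apc, the tumour suppressor scaffold, had 12.97, 12.87 and 13.39 in NDRG1-eGFP, 13.70, 13.98 and 13.92 in PLP-GFP and 13.65, 13.70 and 12.29 in PDGFRa-GFP libraries, and its fold change in the first comparison was -0.79 ± 0.32 (adjusted p = 0.066; -0.18 with length removed).

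Casein kinase 1 genes, whose proteins prime beta-catenin for Gsk3 and also phosphorylate Dishevelled and Lrp6, were lower in NDRG1-eGFP against PLP-GFP in 3 of 6 cases (50%, beside 22.2% of all genes) and in 2 with length removed (33.3%, beside 15.6%). Csnk1e (-0.45 ± 0.14), Csnk1g1 (-0.77 ± 0.25) and Csnk1g3 (-0.49 ± 0.16) were lower in NDRG1-eGFP against PLP-GFP, with adjusted p of 0.0201, 0.0291 and 0.0288. The calls of Csnk1g1 and Csnk1g3 ended with length removed (-0.17 and -0.23), and leaving out 1 compared library ended those of Csnk1e in 3 of 6 fits (NDRG1-eGFP replicate 2 or 3 or PLP-GFP replicate 1), Csnk1g1 in 5 (all but NDRG1-eGFP replicate 3) and Csnk1g3 in 4 (NDRG1-eGFP replicate 3 or any PLP-GFP library). Csnk1g3 shares 9.18% of its 50-base transcript windows with other loci and is uncertain. Csnk1d, a kinase of the circadian clock as well, had 13.26, 13.34 and 13.46 in NDRG1-eGFP, 13.26, 13.28 and 13.38 in PLP-GFP and 13.02, 12.97 and 12.86 in PDGFRa-GFP libraries. PDGFRa-GFP libraries lay below the other 6, with 0.41 ± 0.11 for NDRG1-eGFP (adjusted p = 0.0262) and 0.35 ± 0.11 for PLP-GFP (adjusted p = 0.049) against them. Leaving out 1 compared library ended the first call in 3 of 6 fits (NDRG1-eGFP replicate 2 or 3 or PDGFRa-GFP replicate 2) and the second in 5 of 6, all but that without PDGFRa-GFP replicate 3. The first also ended after recentring each library on its median ratio, and the second with length removed (0.23). Csnk1a1, the main beta-catenin priming kinase, and Csnk1g2 passed no test (0.11 ± 0.11 and -0.72 ± 0.36 in NDRG1-eGFP against PLP-GFP). With length removed, Csnk1g2 was called lower there (-1.07) and Csnk1e in NDRG1-eGFP against PDGFRa-GFP (-0.44).

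**Figure D3:**
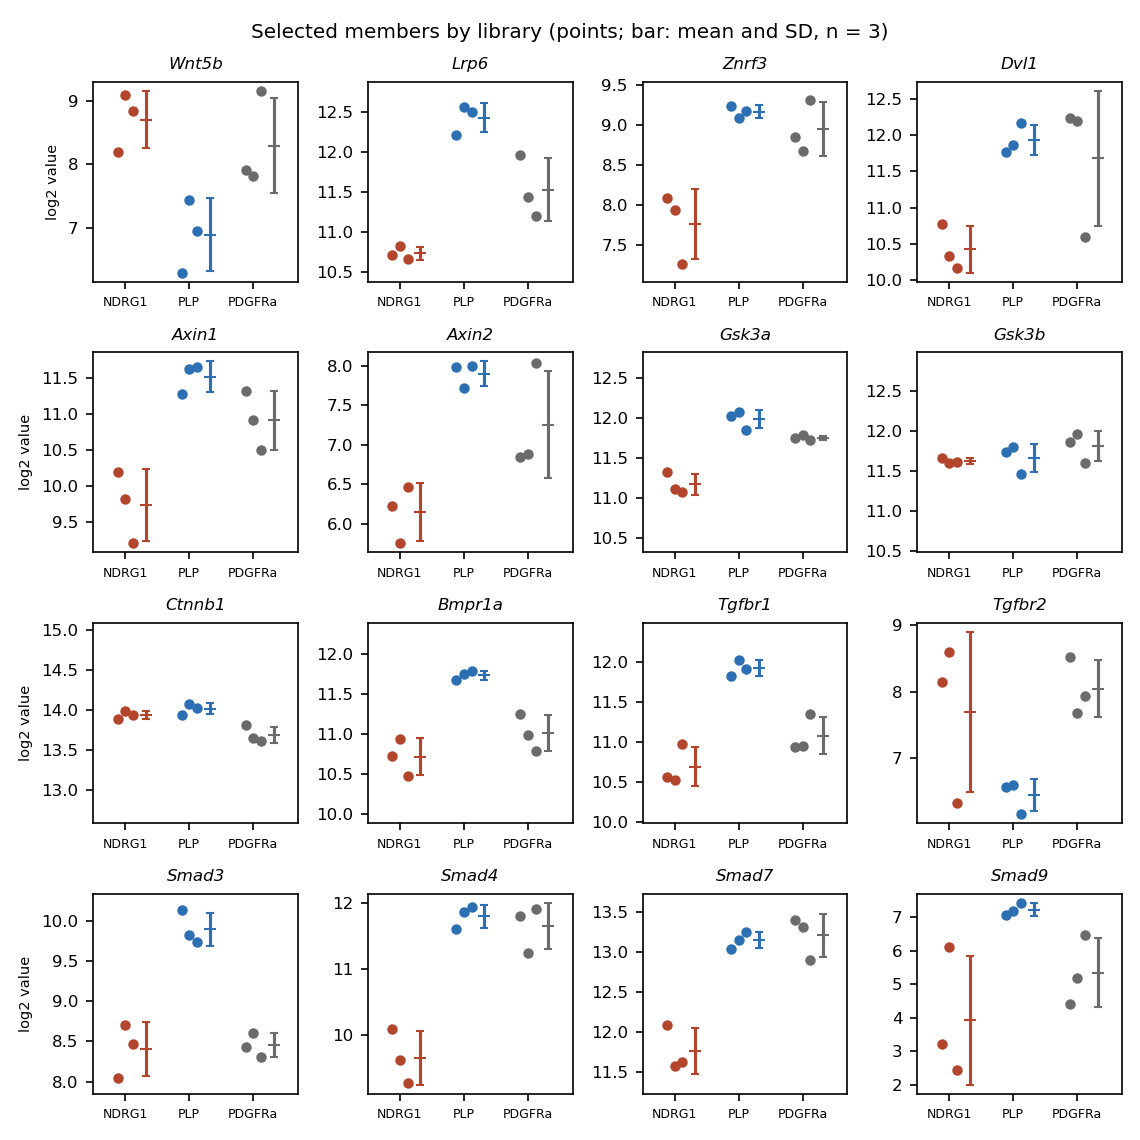
Log2 value of 16 of the genes in each library, with NDRG1-eGFP on the left, PLP-GFP in the middle and PDGFRa-GFP on the right of each panel; points are libraries, bars are the mean and SD (n = 3), and each panel has its own vertical axis. NDRG1-eGFP points lie below all others for Lrp6, Znrf3, Axin1, Axin2, Gsk3a, Smad4 and Smad7, PLP-GFP points lie above all others for Bmpr1a, Tgfbr1, Smad3 and Smad9, and Gsk3b overlaps in all 3 sorts.

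BMP and TGF-beta ligands gave no call in any comparison (limma, 0 of 6 genes; at an unadjusted p under 0.05 there was 1, Bmp2 in NDRG1-eGFP against PLP-GFP), and single libraries set much of their spread. Bmp2, a ligand known to hold back oligodendrocyte differentiation, had 10.14, 10.29 and 10.12 in NDRG1-eGFP, 9.33, 9.61 and 9.85 in PLP-GFP and 10.07, 9.50 and 10.45 in PDGFRa-GFP libraries. NDRG1-eGFP libraries lay above all PLP-GFP libraries by a small margin (0.59 ± 0.24, adjusted p = 0.0631). Bmp5 had 6.57, 7.85 and 1.15 in NDRG1-eGFP, 3.81, 4.69 and 4.97 in PLP-GFP and 7.29, 6.01 and 5.42 in PDGFRa-GFP libraries. Bmp6 had 7.63, 7.23 and 1.59 in NDRG1-eGFP, 6.36, 7 and 8.01 in PLP-GFP and 7.62, 6.90 and 7.13 in PDGFRa-GFP libraries. NDRG1-eGFP replicate 3 was near the floor for both, with 35 and 54 of 11315 genes below them in that library. Without it, Bmp5 was called higher in NDRG1-eGFP against PLP-GFP at a log2 fold change of 2.72, and 46.7% of the Bmp5 transcript lies opposite another gene. Bmp7 had 4.22, 5.37 and 5.12 in NDRG1-eGFP, 5.89, 5.33 and 7.69 in PLP-GFP and 6.36, 4.71 and 5.18 in PDGFRa-GFP libraries, with the sorts overlapping. Of the TGF-beta ligands, Tgfb2 had 5.68, 6.10 and 6.50 in NDRG1-eGFP, 5.38, 5.99 and 6.20 in PLP-GFP and 5.48, 5.42 and 3.13 in PDGFRa-GFP libraries. Tgfb3 had 10.30, 10.64 and 10.47 in NDRG1-eGFP, 10.43, 10.71 and 10.85 in PLP-GFP and 10.63, 10.72 and 9.65 in PDGFRa-GFP libraries. PDGFRa-GFP replicate 3 was the lowest of the 9 libraries for both, as it was for Dvl3 and Apc.

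Receptors of the BMP and activin branches were lower in NDRG1-eGFP against PLP-GFP in 3 of 6 cases (50%, beside 22.2% of all genes), and in 3 with length removed (beside 15.6%). Bmpr1a (chromosome 14, 34410734 to 34503341), the type I receptor for Bmp2 and Bmp4, had 10.73, 10.94 and 10.48 in NDRG1-eGFP, 11.67, 11.75 and 11.78 in PLP-GFP and 11.25, 10.99 and 10.79 in PDGFRa-GFP libraries. PLP-GFP libraries were tightly grouped above both other sorts. The fold change was -1.02 ± 0.16 in NDRG1-eGFP against PLP-GFP (adjusted p = 0.000787; -0.50 with length removed) and 0.72 ± 0.16 in PLP-GFP against PDGFRa-GFP (adjusted p = 0.0188, lost with length removed at 0.42 and in 3 of the 6 fits without 1 compared library: without PLP-GFP replicate 2 or 3 or PDGFRa-GFP replicate 2). Acvr2a, a type II receptor for activins and BMPs, had 8.14, 8.77 and 9.04 in NDRG1-eGFP, 9.59, 10.46 and 10.13 in PLP-GFP and 9.20, 9.01 and 8.75 in PDGFRa-GFP libraries. Again only the PLP-GFP libraries stood apart, at -1.41 ± 0.29 (adjusted p = 0.00278; -0.92 with length removed) and 1.08 ± 0.29 (adjusted p = 0.0309), the second lost with length removed (0.78) and in the same 3 fits as for Bmpr1a. Acvr1, a type I receptor for BMPs, was lower in NDRG1-eGFP against PLP-GFP (-0.83 ± 0.22, adjusted p = 0.0101; -0.84 with length removed). Bmpr2, Acvr1b and Acvr2b passed no test, with -0.31, -1.25 and -0.05 in that comparison.

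Of the 3 TGF-beta receptors, Tgfbr1 alone passed a test as deposited. Tgfbr1 (chromosome 4, 47353222 to 47414931), the type I kinase, had 10.57, 10.53 and 10.98 in NDRG1-eGFP, 11.83, 12.03 and 11.92 in PLP-GFP and 10.94, 10.95 and 11.35 in PDGFRa-GFP libraries. It was lower in NDRG1-eGFP against PLP-GFP (-1.23 ± 0.17, adjusted p = 0.00035; -0.73 with length removed) and higher in PLP-GFP against PDGFRa-GFP (0.84 ± 0.17, adjusted p = 0.0129), a call that ended with length removed (0.55) and without PLP-GFP replicate 2 or 3. Tgfbr2, the type II receptor that binds the ligand first and activates Tgfbr1, had 8.15, 8.59 and 6.33 in NDRG1-eGFP, 6.57, 6.60 and 6.16 in PLP-GFP and 8.52, 7.68 and 7.93 in PDGFRa-GFP libraries. PLP-GFP libraries, which were the highest for Tgfbr1, were the lowest for Tgfbr2 together with NDRG1-eGFP replicate 3. Its fold change in NDRG1-eGFP against PLP-GFP was 1.25 ± 0.53 (adjusted p = 0.0725), and it was called higher without NDRG1-eGFP replicate 3 (1.93) and with length removed (1.88, adjusted p = 0.0263). Against PDGFRa-GFP, PLP-GFP stood at -1.60 ± 0.53 (adjusted p = 0.0605). Tgfbr3, the co-receptor betaglycan, had 7.72, 8.15 and 7.42 in NDRG1-eGFP, 7.97, 9.25 and 8.96 in PLP-GFP and 9.03, 7.83 and 8.33 in PDGFRa-GFP libraries. All 3 sorts overlapped, with the highest mean in PLP-GFP, and the fold change was -0.96 ± 0.40 in NDRG1-eGFP against PLP-GFP (adjusted p = 0.0684), called lower without PLP-GFP replicate 1. Whether the 3 receptors differ in their change was not tested.

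The fibroblast-like markers differed between the sorts and among the NDRG1-eGFP libraries. NDRG1-eGFP replicate 3, the NDRG1-eGFP library with the lowest fibroblast-like median, was also the lowest of its sort for Tgfbr2, Bmp5, Bmp6 and Tgfb1i1. Bmp6 did not follow the markers between sorts, with means of 5.48 in NDRG1-eGFP, 7.12 in PLP-GFP and 7.21 in PDGFRa-GFP. The order was not particular to these genes. Replicate 3 was also the lowest NDRG1-eGFP library for Smad4 (9.26), Smad9 (2.46), Axin1 (9.20), Znrf3 (7.27) and Lrp6 (10.66). Those genes were lower in NDRG1-eGFP against PLP-GFP, opposite to the markers. For others, such as Wnt5b, another replicate was the lowest. Within the other 2 sorts the order of the libraries differed: PLP-GFP replicate 1 had the lowest marker median of its sort and replicate 3 the lowest Tgfbr2 value, and in PDGFRa-GFP these were replicates 3 and 2. In NDRG1-eGFP against PLP-GFP 8 of the 9 measured fibroblast-like markers were higher and in PLP-GFP against PDGFRa-GFP 8 of 9 were lower. The summed linear values of all 9 made up 0.00919% to 0.0254% of NDRG1-eGFP, 0.00432% to 0.00596% of PLP-GFP and 0.0162% to 0.0319% of PDGFRa-GFP libraries. In PLP-GFP libraries most of that sum was Aebp1, which had 11.27, 11.51 and 11.72 there, while no other marker exceeded 7.03. The percentages therefore understate how far the other markers moved. The collagen gene Col3a1 and the proteoglycan gene Dcn were as low as 1.52 in PLP-GFP replicate 1. Microglial markers were also higher in NDRG1-eGFP against PLP-GFP, in 8 of 11. What these cell types add to the receptor and ligand values was not tested.

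**Figure D4:**
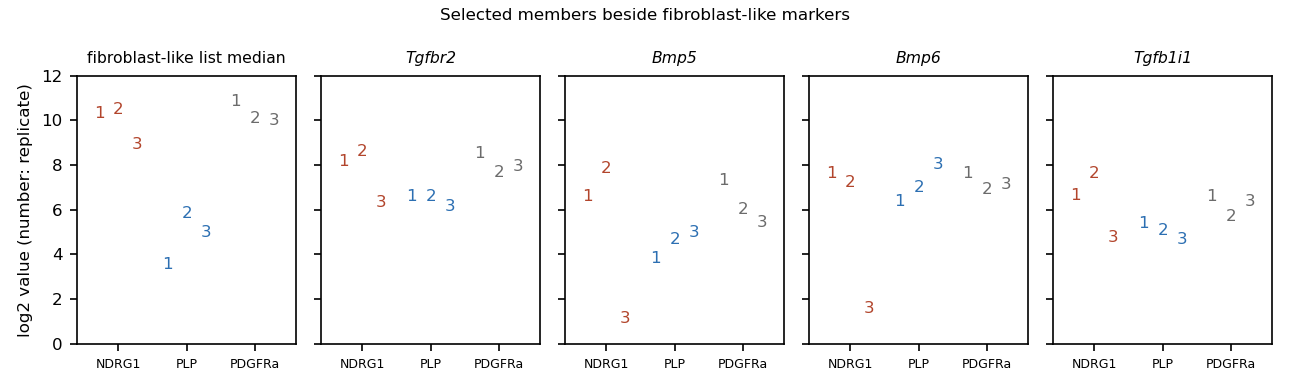
Log2 values in each library, printed as the replicate number, for the median of the 9 measured fibroblast-like markers and for 4 pathway genes, with NDRG1-eGFP on the left, PLP-GFP in the middle and PDGFRa-GFP on the right of each panel. PLP-GFP libraries lie between 3.54 and 5.81 for the marker median, and NDRG1-eGFP replicate 3 is the lowest of its sort in every panel, reaching 1.15 for Bmp5. The 4 genes are a selection, and replicate 3 is also the lowest of its sort for genes not shown, such as Smad4.

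Smads, which carry the signal to the nucleus, held the lowest fold changes of all 58 genes, Smad9 and Smad4, and were called lower in NDRG1-eGFP against PLP-GFP in 5 of 7 cases with Smad7 counted, beside 22.2% of all genes. With length removed, Smad7 and 3 of the 6 other Smads were called lower, beside 15.6% of all genes. Smad4 (chromosome 18, 73639009 to 73703780), the partner shared by both branches, had 10.08, 9.61 and 9.26 in NDRG1-eGFP, 11.61, 11.87 and 11.94 in PLP-GFP and 11.81, 11.25 and 11.91 in PDGFRa-GFP libraries. Every NDRG1-eGFP library was more than 1 log2 unit below every other library, while PLP-GFP and PDGFRa-GFP overlapped. Smad4 was lower in NDRG1-eGFP against PLP-GFP (-2.15 ± 0.23, adjusted p = 9.09e-05) and against PDGFRa-GFP (-2.01 ± 0.23, adjusted p = 0.000247), with -2.13 and -2.07 once length was removed and no call lost in any fit without 1 library. Smad7 (chromosome 18, 75367529 to 75395935), the inhibitory Smad that blocks receptors and is induced by TGF-beta, had 12.09, 11.58 and 11.62 in NDRG1-eGFP, 13.04, 13.15 and 13.25 in PLP-GFP and 13.40, 13.31 and 12.90 in PDGFRa-GFP libraries. It followed the Smad4 pattern, at -1.39 ± 0.17 (adjusted p = 0.000224; -1.12 with length removed) and -1.44 ± 0.17 (adjusted p = 0.000331; -1.38 with length removed).

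Of the Smads that receptors phosphorylate for TGF-beta, Smad3 stood high in PLP-GFP cells and Smad2 passed no test as deposited. Smad3 (chromosome 9, 63646767 to 63757994) had 8.05, 8.70 and 8.47 in NDRG1-eGFP, 10.14, 9.83 and 9.74 in PLP-GFP and 8.43, 8.61 and 8.31 in PDGFRa-GFP libraries. PLP-GFP libraries were more than 1 log2 unit above the other 6, which overlapped. The fold changes were -1.49 ± 0.22 in NDRG1-eGFP against PLP-GFP (adjusted p = 0.000542; -1.08 with length removed) and 1.45 ± 0.22 in PLP-GFP against PDGFRa-GFP (adjusted p = 0.00493; 1.18 with length removed). Among the 11 genes called in the second comparison, Smad3 was the only one whose call held in all 6 fits without 1 compared library. Smad2, which shares its receptor with Smad3, had 10.30, 10.03 and 10.04 in NDRG1-eGFP, 10.26, 10.37 and 10.53 in PLP-GFP and 10.11, 9.70 and 9.86 in PDGFRa-GFP libraries. Its fold change in NDRG1-eGFP against PLP-GFP was -0.26 ± 0.17 (adjusted p = 0.216), and with length removed it was called higher in NDRG1-eGFP against PDGFRa-GFP (0.57, adjusted p = 0.0453; 0.23 as deposited).

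Among the Smads of the BMP branch, Smad9 and Smad5 were lower in NDRG1-eGFP against PLP-GFP and Smad1 was not. Smad9 (chromosome 3, 54755582 to 54801257), also known as Smad8, had 3.21, 6.10 and 2.46 in NDRG1-eGFP, 7.08, 7.19 and 7.43 in PLP-GFP and 4.41, 5.18 and 6.47 in PDGFRa-GFP libraries. PLP-GFP libraries lay above all others, and 2 NDRG1-eGFP libraries were near the low end of the scale, with 96 of 11315 genes below Smad9 in replicate 3. Its log2 fold change of -3.31 ± 0.91 (adjusted p = 0.0128; -2.85 with length removed) was the lowest of the 58 and has a wide error, from -4.39 to -2.58 in fits without 1 compared library. Smad5 had 11.27, 11.24 and 11.43 in NDRG1-eGFP, 12.10, 12.42 and 12.23 in PLP-GFP and 11.59, 11.18 and 11.50 in PDGFRa-GFP libraries. PLP-GFP libraries again stood apart, at -0.93 ± 0.15 (adjusted p = 0.000749) for NDRG1-eGFP against PLP-GFP and 0.82 ± 0.15 (adjusted p = 0.00932) for PLP-GFP against PDGFRa-GFP, and both calls ended with length removed (-0.37 and 0.52), the second also without PLP-GFP replicate 2. Smad1, the third of this branch, had 11.33, 11.61 and 11.72 in NDRG1-eGFP, 11.35, 11.31 and 11.25 in PLP-GFP and 11.40, 11.21 and 11.57 in PDGFRa-GFP libraries. The sorts overlapped, and its fold change was 0.25 ± 0.15 (adjusted p = 0.178).

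The Smurf ubiquitin ligases, which degrade Smads and receptors, gave 1 call among 2 genes, in NDRG1-eGFP against PLP-GFP, where 22.2% of all genes were lower. Smurf2 had 10.86, 10.63 and 10.57 in NDRG1-eGFP, 10.93, 11.41 and 11.42 in PLP-GFP and 10.92, 10.94 and 11.47 in PDGFRa-GFP libraries. It was lower in NDRG1-eGFP against PLP-GFP (-0.56 ± 0.20, adjusted p = 0.0352), a call lost with length removed (-0.12) and without replicate 2 or 3 of either sort. Smurf1 had 12.14, 11.42 and 11.12 in NDRG1-eGFP, 12.14, 12.12 and 12.05 in PLP-GFP and 11.80, 12 and 11.29 in PDGFRa-GFP libraries and passed no test. Only NDRG1-eGFP replicate 1 reached the PLP-GFP level of Smurf1. Without that library Smurf1 was called lower in NDRG1-eGFP against PLP-GFP (-0.83).

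**Figure D5:**
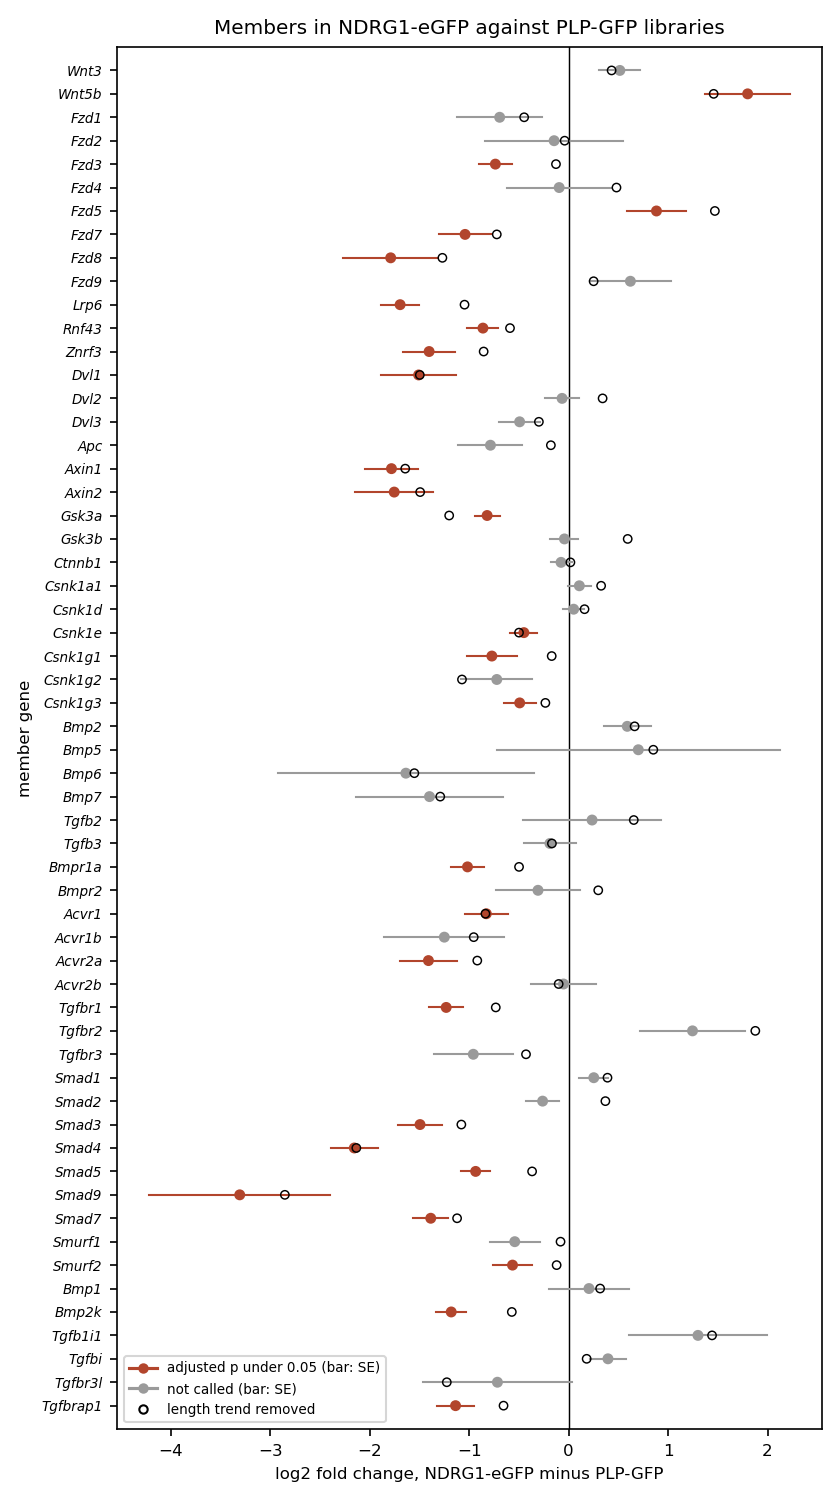
Log2 fold change of NDRG1-eGFP minus PLP-GFP for the 58 genes in order of role; filled points with bars are the fit to the deposited values and its SE, red where the adjusted p is under 0.05, and open circles are the fit with the length trend removed. Of the red points 25 lie left of zero and 2 lie right of it, and the open circles of Fzd3, Csnk1g1 and Smurf2 lie near zero while those of Smad4, Axin1 and Dvl1 stay in place.

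Of the 6 genes that match by name only, 2 were lower in NDRG1-eGFP against PLP-GFP (33.3%, beside 22.2% of all genes). Bmp2k, a kinase first found as induced by BMP2, had 11.38, 11.25 and 11.03 in NDRG1-eGFP, 12.46, 12.41 and 12.34 in PLP-GFP and 12.31, 11.91 and 12.33 in PDGFRa-GFP libraries. NDRG1-eGFP libraries lay below the other 6, with -1.18 ± 0.15 against PLP-GFP (adjusted p = 0.000228) and -0.96 ± 0.15 against PDGFRa-GFP (adjusted p = 0.00173), and both calls held with length removed (-0.57 and -0.66). Bmp2k shares 10.5% of its windows with other loci and 14% of its transcript lies opposite another gene, so its value is uncertain. Tgfbrap1, a vesicle tethering factor that binds TGF-beta receptors, had 11.16, 10.93 and 11.56 in NDRG1-eGFP, 12.27, 12.42 and 12.37 in PLP-GFP and 11.84, 11.71 and 11.27 in PDGFRa-GFP libraries. It was lower in NDRG1-eGFP against PLP-GFP (-1.14 ± 0.19, adjusted p = 0.00101; -0.65 with length removed) and higher in PLP-GFP against PDGFRa-GFP (0.75 ± 0.19, adjusted p = 0.0274), the second lost with length removed (0.46) and without any 1 PLP-GFP library or PDGFRa-GFP replicate 2. Bmp1, a procollagen protease, Tgfbi, a matrix protein induced by TGF-beta, Tgfb1i1, a focal adhesion protein, and Tgfbr3l passed no test.

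Other genes of the same pathways, taken from 2 lists, moved in both directions. Among 38 further Wnt genes measured, 7 rose (18.4%) and 15 fell (39.5%) in NDRG1-eGFP against PLP-GFP, beside 26.1% and 22.2% of all genes. With length removed 6 rose and 10 fell (15.8% and 26.3%, beside 17.6% and 15.6% of all genes). In PLP-GFP against PDGFRa-GFP 3 rose and 2 fell (7.89% and 5.26%, beside 8.46% and 8.53%), and in NDRG1-eGFP against PDGFRa-GFP 2 rose and 7 fell (5.26% and 18.4%, beside 10.7% and 10.4%). The tankyrases Tnks and Tnks2, which mark Axin for destruction, were lower with the Axin genes. Tnks had 10.86, 10.70 and 10.86 in NDRG1-eGFP, 12.77, 13.30 and 12.97 in PLP-GFP and 12.03, 11.47 and 11.33 in PDGFRa-GFP libraries, and the sorts did not overlap. Its fold change in NDRG1-eGFP against PLP-GFP was -2.20 ± 0.20 (adjusted p = 2.62e-05; -1.55 with length removed), and that of Tnks2 was -1.74 ± 0.23. Tnks, Prickle2, a planar polarity protein, and Fbxw11, part of the ligase that recognises marked beta-catenin, were the 3 higher in PLP-GFP against PDGFRa-GFP (1.40 ± 0.20, 0.59 ± 0.13 and 0.68 ± 0.17), of which Tnks kept its call with length removed (1.13) and in every fit without 1 compared library. Prickle2 and Fbxw11 lost theirs with length removed (0.30 and 0.51) and without PLP-GFP replicate 2 or 3 or PDGFRa-GFP replicate 2. Lower in NDRG1-eGFP against both other sorts were also Tcf7l2, the transcription factor through which beta-catenin acts in oligodendrocytes (-0.63 ± 0.14 against PLP-GFP and -0.74 ± 0.14 against PDGFRa-GFP), its co-repressor Tle4 (-1.47 ± 0.19 and -1.0 ± 0.19), the co-activator Bcl9l (-1.37 ± 0.20 and -0.96 ± 0.20) and the Wnt receptor Ryk (-1.11 ± 0.22 and -1.37 ± 0.22). Those 8 calls held with length removed. Daam2 (-1.69 ± 0.37), a Dishevelled partner, and Apcdd1 (-2.45 ± 0.52), a membrane inhibitor of Wnt, were lower in NDRG1-eGFP against PLP-GFP. Rspo3, a secreted ligand that blocks Znrf3 and Rnf43, had 8.49, 9.45 and 6.16 in NDRG1-eGFP, 0.31, 0.32 and 4.46 in PLP-GFP and 8.75, 7.67 and 7.85 in PDGFRa-GFP libraries, the lowest value of all genes in 2 PLP-GFP libraries. It was called higher in NDRG1-eGFP against PLP-GFP (adjusted p = 0.00147) and lower in PLP-GFP against PDGFRa-GFP (adjusted p = 0.00901), and no fold is given against a sort at the floor. Dkk3, of the Dickkopf family of secreted proteins, was higher in NDRG1-eGFP against PLP-GFP (1.58 ± 0.48, lost without NDRG1-eGFP replicate 2 or PLP-GFP replicate 3), and the decoy receptor gene Sfrp4 was lower in PLP-GFP against PDGFRa-GFP (-2.64 ± 0.65, lost without any 1 compared library except PDGFRa-GFP replicate 3). Nkd1, a Dishevelled inhibitor that Wnt induces, had 13.76, 13.77 and 13.82 in NDRG1-eGFP, 12.88, 12.85 and 12.87 in PLP-GFP and 13.19, 13.16 and 12.98 in PDGFRa-GFP libraries, and the sorts did not overlap. It was higher in NDRG1-eGFP against PLP-GFP (0.92 ± 0.10, adjusted p = 0.000126; 1.14 with length removed) and against PDGFRa-GFP (0.67 ± 0.10), opposite in direction to Axin2, Znrf3 and Rnf43 in the first of these. Porcn, the enzyme that attaches lipid to Wnt ligands, was higher in NDRG1-eGFP against both (0.77 ± 0.13 and 0.72 ± 0.13), and the call against PLP-GFP ended with length removed (0.27). Rspo3, Dkk3 and Sfrp4 moved in the direction of the fibroblast-like markers, whose part was not tested.

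Among 34 further BMP and TGF-beta genes, 7 rose (20.6%) and 12 fell (35.3%) in NDRG1-eGFP against PLP-GFP, beside 26.1% and 22.2% of all genes. With length removed 8 rose and 8 fell (23.5% and 23.5%, beside 17.6% and 15.6% of all genes). In PLP-GFP against PDGFRa-GFP 3 rose and 5 fell (8.82% and 14.7%, beside 8.46% and 8.53%), and in NDRG1-eGFP against PDGFRa-GFP 1 rose and 10 fell (2.94% and 29.4%, beside 10.7% and 10.4%). Zfyve9, the anchor that presents Smad2 and Smad3 to the receptor, had 5.89, 6.62 and 5.89 in NDRG1-eGFP, 9.32, 9.86 and 9.44 in PLP-GFP and 8.65, 8.64 and 8.90 in PDGFRa-GFP libraries. Its NDRG1-eGFP values lay below all others, at -3.41 ± 0.27 (adjusted p = 1.23e-05) against PLP-GFP and -2.60 ± 0.27 (adjusted p = 0.000118) against PDGFRa-GFP, with 10.9% of its transcript opposite another gene. Usp9x, which removes ubiquitin from Smad4, was lower by the same comparisons (-2.48 ± 0.18 and -1.39 ± 0.18) and higher in PLP-GFP against PDGFRa-GFP (1.08 ± 0.18), but shares 6.18% of its windows with other loci. Rgma, a BMP co-receptor, was lower in NDRG1-eGFP against PLP-GFP (-1.02 ± 0.18) and PDGFRa-GFP (-1.32 ± 0.18). The Id genes, textbook targets of BMP signalling, divided. Id1, Id2 and Id3 were higher in NDRG1-eGFP against PLP-GFP (3.66 ± 0.34, 2.5 ± 0.28 and 1.38 ± 0.22) and lower in PLP-GFP against PDGFRa-GFP (-2.97 ± 0.34, -2.61 ± 0.28 and -1.31 ± 0.22), in the direction of the fibroblast-like and immediate early lists, whose part was not tested. Id4 had 6.42, 4.21 and 4.45 in NDRG1-eGFP, 6.91, 7.20 and 6.90 in PLP-GFP and 7.69, 8.15 and 7.63 in PDGFRa-GFP libraries, and was lower in NDRG1-eGFP against both (-1.97 ± 0.55, adjusted p = 0.0134, and -2.80 ± 0.55, adjusted p = 0.00645). The sorts did not overlap for Id4, and the call against PLP-GFP ended without PLP-GFP replicate 2. Gdf10, a secreted TGF-beta family member, had 8.79, 8.68 and 7.19 in NDRG1-eGFP, 4.66, 5.28 and 4.20 in PLP-GFP and 8.86, 8.53 and 7.29 in PDGFRa-GFP libraries. It was higher in NDRG1-eGFP against PLP-GFP (3.50 ± 0.55) and lower in PLP-GFP against PDGFRa-GFP (-3.51 ± 0.55), in the direction of the fibroblast-like markers, as was Fstl1, a secreted glycoprotein (2.57 ± 0.68, lost without NDRG1-eGFP replicate 2, and -2.43 ± 0.68, lost without any 1 compared library except PDGFRa-GFP replicate 3), which shares 5.35% of its windows. Tgif2 and Zeb1, repressors that bind Smads, had fold changes of -1.91 ± 0.61 and -2.0 ± 0.62 in NDRG1-eGFP against PDGFRa-GFP, calls lost in 5 and 4 of the 6 fits without 1 compared library (all but PDGFRa-GFP replicate 2 for Tgif2, and NDRG1-eGFP replicate 1 or 3 or PDGFRa-GFP replicate 1 or 2 for Zeb1). Tgif2 was also lower in NDRG1-eGFP against PLP-GFP (-3.01 ± 0.61), but 61.6% of its transcript lies opposite another gene and its values are uncertain, and the call of Zeb1 ended with length removed (-1.79).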

How the data were processed

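Per the file headers, each deposited file held a gene symbol and a normalized value for 1 library. The values deposited by the authors were read as log2 from their range, and their near-identical distributions are like those left by quantile normalization. BWA, DESeq2 1.2.5 and the build mm10 appear in the submitters' processing notes without roles. Whether values were divided by length, and whether strand was used in counting, is not given in the sources used here.

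limma-trend (limma 3.58.1, R 4.3.3) was fitted to the deposited log2 values of all 9 libraries with a term per sort. A filter of at least 1 in at least 3 libraries removed 0 genes. P-values were two-sided and adjusted over 11315 genes, with calls under 0.05. A gene said to pass no test had no call in this fit, and some such genes were called in fits without 1 library. The fit was tested on simulated data. Length, coordinates and 50-base windows shared with other loci came from GENCODE M21 (GRCm38), for 11272 genes. Length trends were splines with 4 degrees of freedom per library. Genes chosen for closer description were those called without overlap (up to 15 per comparison), roles of 4 or fewer and uncalled paralogs. Of the other pathway genes, up to 6 called per list and comparison were chosen. Values in every library are printed for only some of the chosen genes. Apc, Ctnnb1, Nkd1 and Porcn were added after their values were seen. Members and lists were chosen with earlier results of these data known. Replicate numbers gave no sign of pairing: 0 of 9 same-numbered pairs correlated over 0.1, and other pairs correlated at -0.13 to 0.23. Such correlations cannot tell whether same-numbered libraries share an animal or a day.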

Additional observations from a re-analysis of the deposited data

How the results depend on the processing

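Over 13 settings and the fits without 1 library, none of the fold changes chosen for naming changed direction. They were 15 in NDRG1-eGFP against PLP-GFP, 11 in PLP-GFP against PDGFRa-GFP and 10 in NDRG1-eGFP against PDGFRa-GFP. All were chosen as called and without overlap, so no fit without 1 library could reverse them. Settings that change only the threshold, the filter or the genes tested leave the fold change as it is, so direction is not tested there. The call was kept in 642 cases and lost in 143. The 642 include fits without a library outside the comparison and the fit with no filter, which had removed 0 genes. In NDRG1-eGFP against PLP-GFP the count higher, 2 as reported, was 1 at an adjusted p under 0.01 or a log2 change of 1 or more, 0 with means of at least 8, and 4 with only the compared sorts, with length removed or with length removed and a replicate block. The count lower, 25, was 16 at a log2 change of 1 or more and 16 with length removed and the replicate block. In PLP-GFP against PDGFRa-GFP the count higher, 10, was 2 at an adjusted p under 0.01, 2 at a log2 change of 1 or more, 5 with the replicate block, 2 with length removed and 1 with both, and the count lower, 1, was 0 at an adjusted p under 0.01, with means of at least 8, with the block, with length removed and with both. In NDRG1-eGFP against PDGFRa-GFP the count higher, 1, was 0 at an adjusted p under 0.01, at a log2 change of 1 or more, with the median ratio, with only the compared sorts and with the block, and 2 with length removed. The count lower, 11, was 4, 7, 5 and 7 at an adjusted p under 0.01, at a log2 change of 1 or more, with only the compared sorts and with the block, and 5 with length removed and the block. Fits without 1 library gave 1 to 5 higher and 22 to 30 lower in the first comparison, 1 to 13 and 0 to 2 in the second and 0 to 2 and 7 to 15 in the third. The second comparison had 1, 2 and 6 higher without PLP-GFP replicates 2, 3 and 1, and 3 and 13 without PDGFRa-GFP replicates 2 and 3. Recentring on the median ratio moved the median of all genes in NDRG1-eGFP against PDGFRa-GFP to 0.04, against 0.14 as deposited. Same-numbered libraries had deviations that correlated at -0.23 to 0.09, so the block is not a pairing. The setting that combines length and block was chosen after seeing the data, and apart from settings that test fewer genes or samples the cause of each change was not tested. Depth is unknown, and values near the floor rest on few reads or none.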
